A study of Mus musculus with 8 samples.

Results

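The cells described here are 559 thymic fibroblasts of 16-week-old mice in which at least 1 RNA molecule of Dpp4 or Pi16 was counted. They were chosen on these RNA counts from the 6677 cells measured at 16 weeks, out of 9953 cells at both ages. A cell was taken as a fibroblast when at least 4 of Pdgfra, Col1a1, Col1a2, Col3a1, Dcn and Lum were detected. These genes also had to make up at least 0.3% of its UMIs (unique molecular identifiers, counted RNA molecules) and exceed the sum of the epithelial genes Epcam, Krt8, Krt18 and Krt5, and at most 1 of the mural genes Rgs5, Notch3 and Kcnj8 was allowed. This left 1491 fibroblasts at 16 weeks, of which the 559 carried Dpp4 or Pi16 (168 in replicate 1 and 391 in replicate 2) and 932 carried neither. The same rule at 1 week of age found 311 fibroblasts, 156 of them with Dpp4 or Pi16.

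All cells came from thymi of C57BL/6 mice, for which the labels and methods name no allele or treatment in these libraries, depleted of CD45+ cells and sorted as CD45- Ter119- stroma. EpCAM1+ and EpCAM1- cells were mixed at a fixed ratio, so shares are given only within fibroblasts. At each age 1 pool of cells was loaded on 2 wells, called replicates here, and mRNA and antibody tags were counted in the same cells (CITE-seq). The wells are technical replicates, therefore no test between cells or ages was made, and spreads cover the wells alone.

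Dpp4 encodes a membrane-bound dipeptidyl peptidase and Pi16 a secreted or membrane-anchored peptidase inhibitor-like protein. In many organs both mark fibroblasts of the adventitia and of connective tissue sheaths, and in the thymus DPP4+ fibroblasts are known from the capsule and the septa. They differ from fibroblasts inside the organ, which lie close to vessels and to the medulla and make chemokines. Position in the tissue was not measured here.

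The labels call every library thymic epithelial cells. The chosen cells, however, carried all 10 fibroblast markers that the rule did not use, at a summed 25662 and 24183 CPM (counts scaled to the UMIs of the class) in the 2 wells, against 21889 and 21521 CPM in the other fibroblasts. Their summed thymic epithelial markers, at 1112 and 1384 CPM, lay close to those of the other fibroblasts at 1159 and 1469 CPM. Epithelial RNA was thus present at a like level in both classes.

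Fibroblasts with Dpp4 or Pi16 held somewhat more UMIs per cell than the rest. Their median was 12949 and 10908 UMIs per cell, against 9141 and 9400 in the other fibroblasts. Summed, they held 2252888 and 4263911 UMIs and the others 2515926 and 6598953. The wells as a whole held from 21281389 to 45480790 UMIs at 16 weeks, and 15 barcodes occurred in more than one library, 2 of them among the chosen cells, both in replicate 1. Mitochondrial RNA made up 2.29% and 2.82% of their UMIs, against 2.64% and 2.99% in the others. Predicted doublets were 3 and 20 of the chosen cells and 11 and 46 of the others.

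Pi16 was the more abundant of the pair. It gave 4013 and 4963 UMIs (1781 and 1164 CPM), whereas Dpp4 gave 342 and 430 UMIs (152 and 101 CPM). Pi16 alone was found in 100 and 251 cells, Dpp4 alone in 8 and 34, and both in 60 and 106. Most of the chosen cells therefore entered by Pi16. In mm10 coordinates (GRCm38), Dpp4 lies at chr2:62330073-62412231 on the minus strand and Pi16 at chr17:29317680-29330593 on the plus strand.

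The share of fibroblasts with Dpp4 or Pi16 was 40.4% in replicate 1 (95% exact binomial interval 35.6 to 45.3) and 36.4% in replicate 2 (33.5 to 39.3), a mean of 38.4% ± 2.84 (SD, n = 2 wells). These intervals cover counting error only. Of the thymic epithelial cells, 24.1% and 22.3% also held at least 1 UMI, at median depths of 6949 and 6131.5 UMIs. Their Pi16 UMIs per Dpp4 UMI were 3.64 and 8.19, against 11.7 and 11.5 in the chosen cells. Whether epithelial cells express either gene was not tested. With every cell thinned to 2000 UMIs, the shares were 22.4% and 18.9% in fibroblasts and 5.99% and 7.29% in epithelial cells. The thinned share in fibroblasts was thus above that in epithelial cells in both wells. Without thinning, at least 2 UMIs were held by 23.8% and 18.8% of fibroblasts and by 5.37% and 3.88% of epithelial cells. Most epithelial cells with a UMI of either gene thus held only 1. Whether the chosen cells with 1 UMI express either gene was not tested.

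Many of the chosen cells stood just inside the limit. A single UMI admitted 69 and 189 of them, whereas the highest cells held 338 and 217 UMIs. The 258 cells with 1 UMI had a median depth of 11271 UMIs, and the 932 fibroblasts with none had 9339.5. On the other limits, 34 cells had exactly 4 fibroblast genes and 6 more would have entered with 3; 20 cells lay at 0.3 to 0.5% fibroblast UMIs and 19 more at 0.1 to 0.3%. A further 88 cells were kept out by 2 or more mural genes, while 222 of the chosen cells had 1.

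Cells with 10 or more UMIs of Dpp4 and Pi16 were counted in fibroblasts and epithelial cells. They were 56 and 93 fibroblasts (13.5% and 8.65% of fibroblasts), against 4 and 1 epithelial cells among 1135 and 2784.

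**Figure D1:**
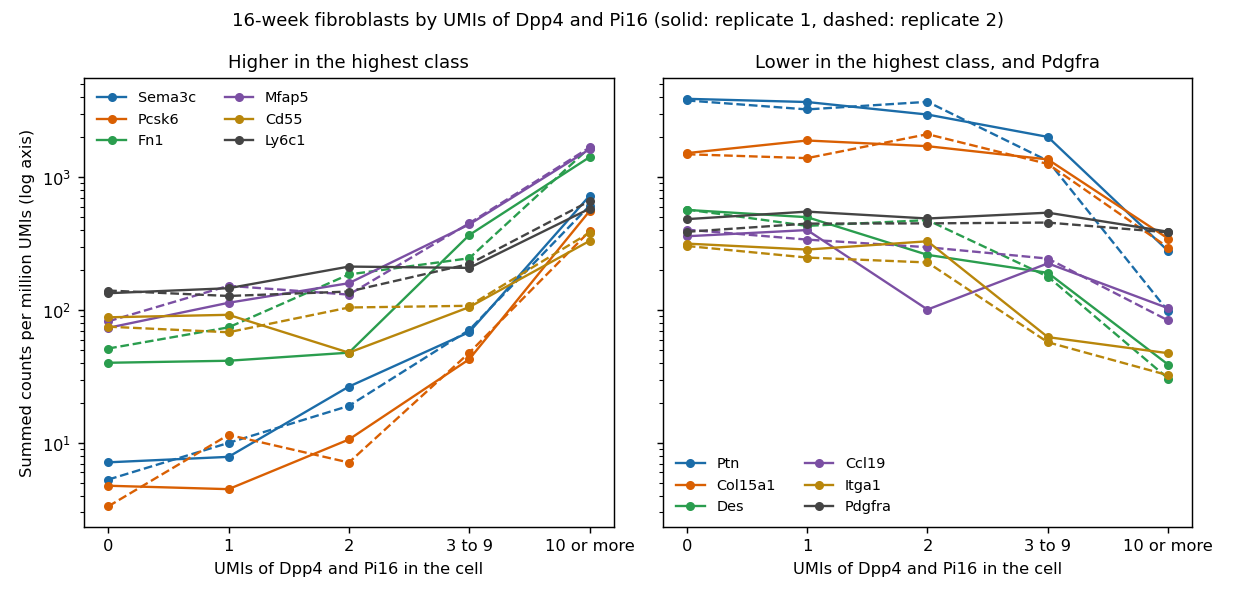
Summed CPM (log axis) of 12 genes in 16-week fibroblasts binned by their UMIs of Dpp4 and Pi16 (0, 1, 2, 3 to 9, and 10 or more), with solid lines for replicate 1 and dashed lines for replicate 2. Sema3c rose from 7.15 and 5.30 CPM in cells without either gene to 725 and 610 CPM in the highest bin, Ptn went from 3887 and 3779 to 278 and 97.9, and Pdgfra stayed between 384 and 551.

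Binning the fibroblasts by these UMIs showed how the class was made up. Sema3c, a secreted semaphorin of the chr5:17574281-17730268 locus (plus strand), stood at 7.15 and 5.30 CPM in the cells without Dpp4 or Pi16. Cells with 1 UMI were at 7.87 and 10.0 CPM. The level was 26.6 and 19.0 CPM with 2 UMIs, 68.3 and 70.9 CPM with 3 to 9, and 725 and 610 CPM with 10 or more. The cells with 1 UMI were thus nearer in this gene to the cells outside the class than to the highest bin.

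The same form was seen for Fn1 (fibronectin), at 40.1 and 51.4 CPM without either gene and 1415 and 1670 CPM in the highest bin. Mfap5, a microfibril protein, went from 73.5 and 82.3 CPM to 1623 and 1673 CPM. In the other direction, Ptn (pleiotrophin, a heparin-binding growth factor) went from 3887 and 3779 CPM to 278 and 97.9 CPM. Des, the intermediate filament desmin, went from 567 and 571 CPM to 38.9 and 30.5 CPM, and Col15a1, a basement membrane collagen, from 1517 and 1488 CPM to 345 and 295 CPM. Pdgfra, which the rule used, was flat at 483 and 388 CPM without either gene and 389 and 384 CPM in the highest bin.

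Cells with both genes, which hold at least 2 UMIs by construction, repeated the pattern of the bins. Sema3c was at 774 and 531 CPM in cells with both, 17.5 and 32.8 CPM with Pi16 alone, and 30.5 and 49.2 CPM with Dpp4 alone. Ptn was lowest in the cells with both, at 215 and 280 CPM, against 3201 and 2988 CPM with Pi16 alone and 2072 and 2088 CPM with Dpp4 alone.

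In the comparison of all 559 cells with the 932 other adult fibroblasts, CPM were taken from UMIs summed over cells in each well. A gene was counted where the fold was at least 2 in the same direction in both wells, among 13706 genes with at least 30 UMIs. Of these, 372 were higher (2.71%) and 91 lower (0.664%), with a median log2 fold over all genes of -0.02. Since the cells were chosen on RNA of the same cells, the folds are a description. The members that entered by a single UMI are part of every value.

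**Figure D2:**
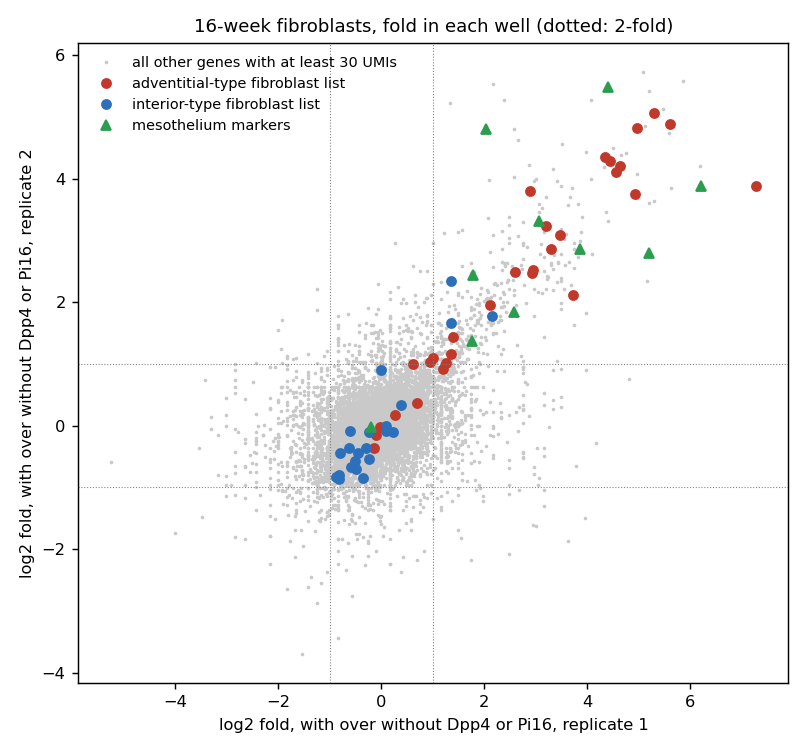
Log2 fold of 16-week fibroblasts with over without Dpp4 or Pi16 in replicate 1 (x axis) and replicate 2 (y axis), 1 point per gene, with dotted lines at 2-fold. Of the 30 genes of the adventitial-type list (red), 22 lay above 2-fold in both wells and none below, while the 22 genes of the interior-type list (blue) lay mostly just below 0 and the mesothelium markers (green) mostly above 2-fold.

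Pcsk6, Sema3c and Ackr3 were among the 10 genes with the largest folds. Pcsk6, a proprotein convertase, was at 213 and 117 CPM against 4.77 and 3.33 CPM in the other fibroblasts. Sema3c was at 281 and 178 CPM against 7.15 and 5.30 CPM, a mean of 36.3-fold. Ackr3, a scavenging receptor for CXCL12, was at 155 and 125 CPM against 3.18 and 4.24 CPM. The choice of these genes required a large fold in both wells.

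The others named by the rule were Mrgprg (a Mas-related receptor), Ptx3 (pentraxin 3, a soluble pattern recognition protein), Sema3d (a semaphorin), Fndc1, Opcml (a GPI-anchored adhesion protein), Edn1 (endothelin 1) and Gpc3 (glypican 3). Their mean folds ran from 22.5 for Gpc3 to 52.8 for Mrgprg. Mrgprg was found in only 8.33% and 4.604% of the chosen cells, and 5 cells held 85.6% and 62.4% of its UMIs. Sema3c, by contrast, was found in 39.9% and 32.7% of them, against 6.45% and 4.68% of the other fibroblasts and 12.2% and 9.52% of epithelial cells.

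**Figure D3:**
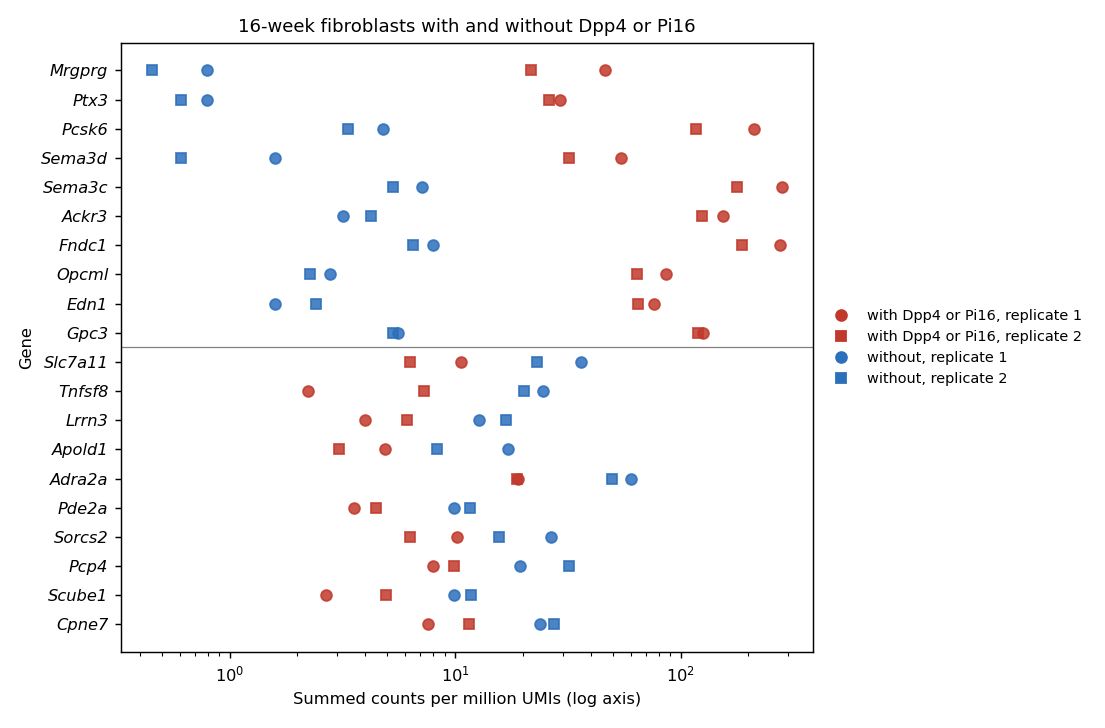
Summed CPM (log axis) of the 20 genes with the largest folds (by the well where the fold was smaller) in 16-week fibroblasts with Dpp4 or Pi16 (red) and without (blue), with circles for replicate 1 and squares for replicate 2. The 10 genes above the line were higher by 22.5-fold or more on average, and the 10 below were lower in both wells, by less.

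Genes lower in the chosen cells changed less. Adra2a, an alpha-2 adrenergic receptor, was at 19.1 and 18.8 CPM against 60.4 and 49.9 CPM, and Tnfsf8, the CD30 ligand, at 2.22 and 7.27 CPM against 24.6 and 20.2 CPM. Slc7a11, a cystine transporter, was at 10.7 and 6.33 CPM against 36.2 and 23.0 CPM. Lrrn3, Apold1, Pde2a, Sorcs2, Pcp4, Scube1 and Cpne7 completed the 10 named, with mean log2 folds from -1.63 to -1.34. In the highest bin Adra2a stood at 2.43 and 1.80 CPM.

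Of the 30 genes of a list for adventitial fibroblasts of many organs, 22 were higher and none lower, with a median log2 fold of 2.71. Over all genes 2.71% were higher and 0.664% lower. Anxa3 (annexin A3) was at 363 and 257 CPM against 15.5 and 14.9 CPM. Pcolce2, an enhancer of procollagen processing, was at 234 and 207 CPM against 11.5 and 10.2 CPM. Cd248 (endosialin) was at 402 and 258 CPM against 52.1 and 44.9 CPM. Cd34, at 986 and 922 CPM, was level with the others at 998 and 935 CPM. Thy1 and Cd44 were likewise below 2-fold, with log2 folds of -0.12 and -0.25.

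Secreted antagonists of Wnt and BMP signals were a second group. Of 14 measured, 8 were higher and none lower, beside 2.71% and 0.664% of all genes, with a median log2 fold of 1.94. Sfrp2, a Wnt-binding decoy, was at 277 and 195 CPM against 34.6 and 12.3 CPM. Sfrp4, of the same family, was at 61.7 and 46.9 CPM against 0.397 and 3.18 CPM. Fst (follistatin, which binds activins) was at 114 and 110 CPM against 21.1 and 17.7 CPM, and Sfrp1, Chrdl1 and the Wnt agonist Rspo1, which the list also holds, were among the 8.

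Among growth factors and their binding proteins, 11 of 29 were higher and none lower, beside 2.71% and 0.664% of all genes. Igfbp6, which binds IGF2, was at 946 and 996 CPM against 111 and 146 CPM. Vegfd, a lymphatic growth factor, was at 31.1 and 28.4 CPM against 2.38 and 1.97 CPM. Fgf7, the keratinocyte growth factor that acts on epithelium, was at 48.4 and 40.8 CPM against 21.9 and 19.2 CPM, just past 2-fold. Igfbp5 was at 859 and 1200 CPM against 94.2 and 92.7 CPM; epithelial cells also held it, in 65.8% and 63.4% of cells. Its UMIs were concentrated, with 740 of 1935 and 2962 of 5118 in the chosen cells that held at least 2 mesothelium markers, and 5 cells held 50.0% and 34.4% of them.

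Matrix genes differed in part. Of 19 elastic fibre genes, 6 were higher and none lower, among them the crosslinking enzymes Lox, at 133 and 94.7 CPM against 20.3 and 15.6 CPM, and Loxl1. Of 23 proteoglycans and glycoproteins, 6 were higher, led by Ogn (osteoglycin) at 823 and 648 CPM against 26.2 and 38.5 CPM. Of 20 proteases and inhibitors 5 were higher, including Timp2 and Timp3. Of 17 collagens, by contrast, only Col14a1, a fibril-associated collagen, was higher, at 453 and 338 CPM against 52.1 and 29.4 CPM. None of these lists had a member at least 2-fold lower, beside 0.664% of all genes, and 2.71% of all genes were higher.

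The transcription factors Osr1, Ebf2, Creb5 and Wt1 were higher, 4 of 29 measured, and none was lower, beside 2.71% and 0.664% of all genes. Osr1, a zinc finger factor of connective tissue progenitors, was at 81.2 and 80.4 CPM against 19.5 and 17.6 CPM. All of the 3 retinaldehyde dehydrogenases, Aldh1a1, Aldh1a2 and Aldh1a3, which make retinoic acid, were higher, in a list of 10. In the highest bin Aldh1a2 was not higher, at 2.43 and 2.69 CPM against 5.17 and 3.33 CPM without either gene. Among 25 receptors, 3 were higher, Il4ra, Ntrk2 and Itgbl1. Il4ra, the interleukin 4 receptor, was at 155 and 114 CPM against 52.5 and 50.5 CPM.

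No member past 2-fold in either direction was found among 25 chemokines and cytokines, 14 MHC and interferon-induced genes, 18 immediate early and stress genes, 12 adipogenic genes and 15 cell cycle genes. Over all genes 2.71% were higher and 0.664% lower, so few members would be past 2-fold in lists of this size. With replicate 1 alone, 8 cell cycle genes were past 2-fold higher. Of 12 complement genes, only the regulator Cd55 was higher, at 178 and 161 CPM against 88.2 and 75.0 CPM. Of 22 genes of interior and perivascular-type fibroblasts, Penk, Gdf10 and Inmt were higher and none lower, with a median log2 fold of -0.37.

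More genes were lower between the extremes. In cells with 10 or more UMIs of Dpp4 and Pi16 against those with none, a comparison added after the values had been seen, 628 of 12896 genes were higher (4.87%) and 799 lower (6.2%). Of the adventitial list 26 of 30 were higher and none lower. Of the interior list 10 of 22 were lower, namely Ccl19, Ptn, Apod, Col15a1, Enpp2, Cxcl14, Hsd11b1, Sparcl1, Postn and Tnc, and 2 higher, Gdf10 and Inmt. Ccl19, a CCR7 ligand, was at 103 and 83.5 CPM against 359 and 403 CPM, and Postn (periostin) at 279 and 119 CPM against 2336 and 2626 CPM.

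Chemokines and cytokines split between these extremes, with 3 of 25 higher and 7 lower. Csf1, a macrophage growth factor, was higher at 250.2 and 249 CPM against 94.99 and 87.7 CPM. Transcription factors split as well, with 7 of 29 higher, among them Osr1 and Foxp2, and 6 lower, among them Meox1 and Nr2f2. Collagens showed 3 of 17 higher, namely Col8a1, Col12a1 and Col14a1, and 5 lower, and elastic fibre genes 11 of 19 higher and 3 lower. Of the MHC list, H2-K1, H2-D1 and Tap1 were lower. Among 18 immediate early and stress genes, Hspa1a and Hspa1b, heat shock genes that respond to dissociation, were lower, at 635 and 630.5 CPM against 2755 and 2646 CPM for Hspa1a, and the part of handling was not tested.

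Markers of mural cells moved with this difference. Of 10 mural markers 5 were lower in the highest bin (Notch3, Kcnj8, Abcc9, Des and Tagln) and none higher. The rule had used Notch3 and Kcnj8. The summed level of the 10 was 213 and 194 CPM against 983 and 1001 CPM, of which Des gave 567 and 571 CPM. In all 559 cells the summed level was 503 and 555 CPM, and Kcnj8 and Tagln were lower. The rule had limited mural genes in both classes alike. Among 10 endothelial markers Kdr and Tek, receptors for VEGF and angiopoietins, were higher in all cells with Dpp4 or Pi16, Tek at 30.2 and 24.2 CPM against 4.77 and 2.88 CPM, while the summed list was at 153 and 186 CPM against 169 and 209 CPM. The part of other cell types in the result was not tested.

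Surface proteins were read by 27 tags, each a 15-base DNA barcode on an antibody or, for the lectin UEA1, on streptavidin. The tags did not enter the rule. The barcodes of those on which the results below turn differ from every other barcode by at least 6 bases and are, in capitals throughout:
CD49a: CCATTCATTTGTGGC
CD54: ATAACCGACACAGTG
Podoplanin: GGGCGATTTAGTGTG
Epcam: ACCCGCGTTAGTATG
Sca1: TTCCTTTCCTACGCA

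Levels are means over cells of log2 of the tag count scaled to the cell's tag total, plus 1. A tag was counted where both wells differed by at least 0.5 in the same direction. Between fibroblasts with and without Dpp4 or Pi16, 3 of the 27 tags were lower (11.1%) and 1 higher (3.7%).

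CD49a, the alpha-1 chain of a collagen-binding integrin, differed most. Its level was 6.36 and 6.30 in the chosen cells against 8.30 and 8.11 in the other fibroblasts and 3.33 and 3.16 in epithelial cells, a difference of -1.87 ± 0.09 (SD, n = 2 wells). The median tag counts were 5 and 4 per cell against 38.5 and 22.5. The encoding gene Itga1 (chr13:114953096-115101964, minus strand) went the same way, at 167 and 157 CPM against 316 and 304 CPM. It fell short of 2-fold.

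The tag followed the UMIs of Dpp4 and Pi16. The level of CD49a was 8.15 and 7.14 with 1 UMI, 6.42 and 7.06 with 2, 5.72 and 5.59 with 3 to 9, and 4.49 and 4.77 with 10 or more. Itga1 RNA was at 47.4 and 32.3 CPM in the last of these. Cells highest in Dpp4 and Pi16 thus had the least CD49a of these bins by tag and by RNA, while 1-UMI cells lay near the cells with none in replicate 1 and near the 2-UMI cells in replicate 2.

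**Figure D4:**
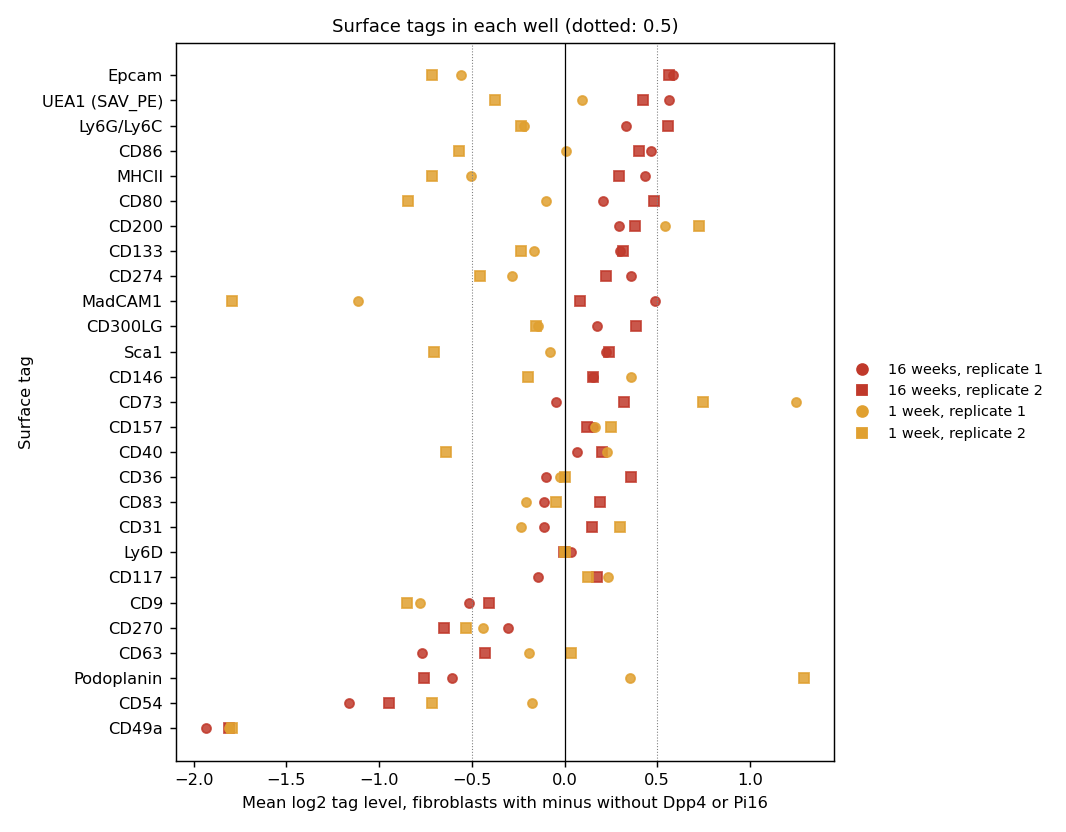
Difference in mean log2 tag level between fibroblasts with and without Dpp4 or Pi16 for 27 tags, at 16 weeks (red) and 1 week (orange), with circles for replicate 1, squares for replicate 2 and dotted lines at 0.5. CD49a was the lowest at 16 weeks, at -1.94 and -1.81, and lay at -1.81 and -1.79 at 1 week, whereas Podoplanin and Epcam lay on opposite sides of 0 at the 2 ages.

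CD54 (ICAM-1, a ligand of leukocyte integrins) was at 8.08 and 8.28 against 9.24 and 9.23, a difference of -1.06. Its RNA, Icam1, differed little, with a log2 fold of -0.25. Podoplanin, a mucin-like protein of many fibroblasts, was at 6.55 and 5.70 against 7.15 and 6.46, although Pdpn RNA was level with a log2 fold of 0.05. In the highest bin the CD54 tag was at 6.99 and 7.53, and Icam1 RNA was at 106 and 152 CPM against 205 and 234 CPM without either gene, short of 2-fold. Pdpn RNA, in contrast, was at 174 and 169.7 CPM against 153 and 146 CPM there.

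The Epcam tag was higher, at 5.67 and 5.79 against 5.08 and 5.22. Its median counts were 4 and 3 in both classes, and Epcam RNA was not higher (47.5 and 69.4 CPM against 66.0 and 70.0 CPM). With unscaled counts the difference was 0.09. The cells with Dpp4 or Pi16 had fewer tag counts in total, with medians of 186.5 and 159 against 336.5 and 226, and the part of this in the tag differences was not tested.

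Sca1, the product of Ly6a and a broad adventitial marker, was at 9.16 and 9.14 against 8.93 and 8.90, a small difference of 0.23 that was -0.19 with unscaled counts. Ly6G/Ly6C was higher by 0.33 and 0.56, and Ly6c1 RNA was higher at 319.6 and 284 CPM against 134 and 140.3 CPM. The lectin UEA1 was higher by 0.57 and 0.42. Over all chosen cells neither tag reached 0.5 in both wells. In the highest bin UEA1 was at 9.14 and 9.11, against 7.71 and 7.96 in cells without Dpp4 or Pi16. Ly6G/Ly6C was at 3.22 and 3.84 there, against 2.27 and 2.53.

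RNA of genes that mark mesothelium, the epithelium that covers the organ, was found in some of the chosen cells. At least 2 of 10 mesothelium markers were detected in 15.5% and 15.9% of them, against 5.65% and 6.73% of the other fibroblasts. The summed markers were at 197 and 327 CPM against 51.7 and 72.1 CPM, and 9 of the 10 were higher (background 2.71%). None was at 0 in either class. Not all of these markers are particular to mesothelium in these data. Msln was found in 8.33% and 7.93% of the chosen cells, against 17.8% and 14.9% of epithelial cells. Holding at least 2 markers therefore does not settle that a cell is mesothelial, and this was not tested.

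These markers were not spread alike. Upk3b, a uroplakin of mesothelial cells, was found in 2 and 13 of the chosen cells, and 5 cells held 100% and 77.7% of its UMIs; in replicate 1 all of them came from predicted doublets. Wt1 (chr2:105126529-105173616, plus strand), a transcription factor of mesothelium that some fibroblasts also carry, was found in 24.4% and 22.0% of the chosen cells against 0.806% and 1.61% of the others and 0.617% and 0.754% of epithelial cells. Between the extremes of Dpp4 and Pi16, 5 of the 10 markers had enough UMIs to be compared, and of these Wt1 was higher, at 113 and 145 CPM against 0.795 and 4.24 CPM. The summed markers were at 170 and 230 CPM in the highest bin against 51.7 and 72.1 CPM, and 26.8% and 30.1% of its cells held at least 2 of them. Without the cells holding at least 2 markers, 20 adventitial genes and 8 Wnt and BMP antagonists were higher. Only 1 mesothelium marker was then higher, but the cells were left out on these same markers, so this fall was built in. With the predicted doublets left out, 1 mesothelium marker was higher as well.

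The contrast was also made at 1 week, within each well. Of the 20 named genes, 12 went the same way in both 1-week wells as at 16 weeks. The others were Edn1, Slc7a11, Tnfsf8, Pde2a, Sorcs2, Pcp4, Scube1 and Cpne7, most of them with few UMIs. The count was 8 both without cells holding at least 2 mesothelium markers and with cells thinned to 2000 UMIs. The 1-week cells with Dpp4 or Pi16 were deeper than the others, with medians of 19732 and 17317 UMIs against 6560.0 and 7432.5. Sema3c was at 331 and 349.5 CPM against 83.2 and 47.5 CPM, and Pcolce2 at 53.9 and 38.0 CPM against 2.11 and 2.74 CPM. The CD49a tag was lower at 1 week as well, by -1.81 and -1.79. At 1 week, however, 63.1% and 69.4% of the fibroblasts with Dpp4 or Pi16 held at least 2 mesothelium markers.

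At 1 week the share with Dpp4 or Pi16 was 53.5% (45.4 to 61.5) and 46.8% (38.7 to 55.0), a mean of 50.1% ± 4.77 (SD, n = 2 wells). The share at 16 weeks was lower by 11.7 points (a difference of -11.7). Thinned to 2000 UMIs, the shares were 28.7% and 19.5% at 1 week, and the difference was -3.45 points. Without cells holding at least 2 mesothelium markers, it was 0.954 points, the other way. No direction with age is therefore read from the share. Epithelial cells at 1 week held at least 1 UMI in 15.7% and 17.7%.

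Fibroblasts with Dpp4 or Pi16 were then compared between the ages. Age, pool and preparation cannot be told apart. The cells at 1 week were deeper, and of 12 thymic epithelial markers 6 were lower and 3 higher at 16 weeks. A gene was counted where both 16-week wells lay at least 2-fold above, or below, both 1-week wells. Of 12648 genes, 744 were higher at 16 weeks (5.88%) and 550 lower (4.35%), with a median log2 fold over all genes of 0.03. Without cells holding at least 2 mesothelium markers, which left 471 cells at 16 weeks and 53 at 1 week, the counts were 428 and 223 of 11340 genes, and values without these cells are given below for several groups.

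**Figure D5:**
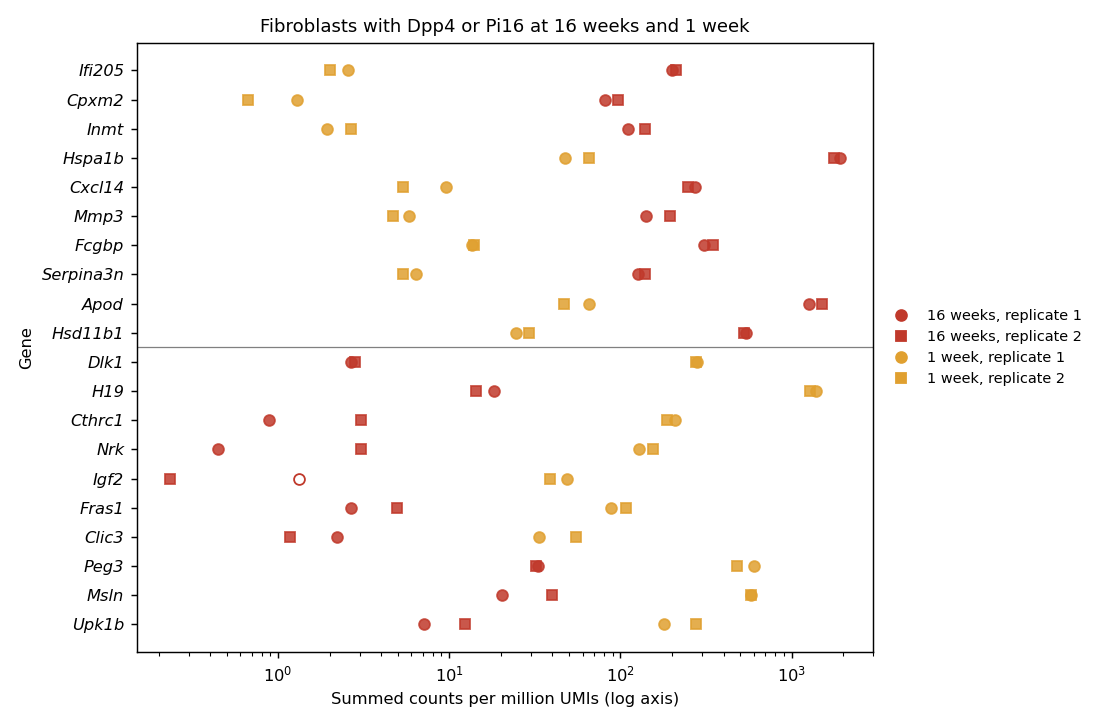
Summed CPM (log axis) of the 20 genes with the largest folds between fibroblasts with Dpp4 or Pi16 at 16 weeks (red) and 1 week (orange), with circles for replicate 1 and squares for replicate 2. Genes above the line were higher at 16 weeks and those below lower, with no overlap of the ages, which their choice required. The open circle is Igf2 in replicate 1 at 16 weeks, drawn at 3 counts because none was found.

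The 10 leading genes at 16 weeks were Ifi205, Cpxm2, Inmt, Hspa1b, Cxcl14, Mmp3, Fcgbp, Serpina3n, Apod and Hsd11b1. Ifi205, an interferon-induced gene, was at 201 and 212 CPM against 2.57 and 2.00 CPM. Apod, a lipid carrier, was at 1265 and 1503 CPM against 65.5 and 46.7 CPM. Hspa1b, a heat shock gene that also responds to dissociation, was at 1914 and 1769 CPM against 47.5 and 65.4 CPM. Of the 10 fibroblast markers not used by the rule, Gsn and Bgn were higher and Sparc lower, with a median log2 fold of 0.28. Gsn (gelsolin) was at 14766 and 13646 CPM against 1517 and 1223 CPM. Without the mesothelium-marked cells the 10 leading genes had mean log2 folds from 3.36 for Mmp3 to 5.39 for Cxcl14, and that of Cpxm2, a carboxypeptidase-like protein, went from 6.58 to 3.69.

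Of 12 complement genes 7 were higher at 16 weeks and none lower, beside 5.88% and 4.35% of all genes. Their median log2 fold was 1.43. C3, the central component, was at 5070 and 4398 CPM against 412 and 760.5 CPM. C1ra, C1s1 and C4b, of the classical pathway, and Serping1, its inhibitor, were among the 7. Without the mesothelium-marked cells 9 were higher and 1 lower.

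Of 25 chemokines and cytokines 12 were higher and 1, Cxcl10, lower, beside 5.88% and 4.35% of all genes. Ccl11, an eosinophil attractant, was at 835 and 815 CPM against 223 and 217 CPM, and Ccl19 at 239 and 252 CPM against 25.7 and 16.7 CPM. Tslp was at 39.1 and 39.6 CPM against 7.06 and 9.34 CPM. Without the mesothelium-marked cells 7 were higher and none lower. Of 14 MHC and interferon-induced genes, H2-K1, H2-D1, B2m and Psmb8 were higher.

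The 10 leading genes lower at 16 weeks included imprinted genes. Dlk1, a Notch-like ligand of immature mesenchyme, was at 2.66 and 2.81 CPM against 282 and 278 CPM. The imprinted RNA H19 was at 18.2 and 14.3 CPM against 1386 and 1281 CPM, while in the other adult fibroblasts it was at 1.59 and 0.606 CPM. Igf2, the growth factor beside H19, was at 0 (which allows up to 3 counts) and 0.235 CPM against 48.8 and 38.7 CPM. The imprinted Peg3 and the matrix genes Cthrc1 and Fras1 were lower too, with Nrk and Clic3. The last of the 10, Msln and Upk1b, are mesothelium markers.

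Without the mesothelium-marked cells the log2 folds of Dlk1, H19, Cthrc1 and Nrk lay between -7.61 and -6.99. Those of Fras1 and Msln were -2.75 and -1.30, and Msln was among the markers on which those cells were left out. The summed mesothelium markers at 1 week were at 2591 and 3560 CPM in the cells with Dpp4 or Pi16. Of 10 markers 9 were lower at 16 weeks with all cells.

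Of the 6 fibroblast genes that the rule used, 3 were lower (the fibrillar collagens Col1a1, Col1a2 and Col3a1) and 2 higher (Pdgfra and Dcn). Col1a1 was at 1800.4 and 1518 CPM against 7375 and 6788 CPM, and Col3a1 at 3504 and 3122 CPM against 11932 and 10953 CPM. Of the other 17 collagens none was past 2-fold with all cells, and 4 were lower without the mesothelium-marked cells. Elastin (Eln) and the microfibril genes Fbn2, Mfap2 and Mfap4 were lower, and Ltbp1 and Ltbp4 higher, 4 and 2 of 19 elastic fibre genes. Without the marked cells 5 were lower and 4 higher. Of 15 cell cycle genes 7 were lower with all cells, and none without the marked cells.

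Of the adventitial list 4 of 30 were higher with age (Ly6a, Ly6c1, Pcolce2 and Scara5) and none lower, beside 5.88% of all genes higher, with a median log2 fold of 0.53 against 0.03, and 3 higher and 1 lower without the mesothelium-marked cells. Ly6a was at 1356 and 1398 CPM against 436 and 354 CPM, and its tag Sca1 was higher by 2.39. In all, 7 of the 27 tags were higher at 16 weeks (25.9%) and 6 lower (22.2%). CD86 was higher by 1.91, CD9 by 1.49 and CD49a by 1.29, with CD80, CD133 and CD54 the rest. Without the mesothelium-marked cells 4 tags were higher, and CD49a at 0.24, CD54 at 0.29 and CD86 at 1.71 were no longer past 0.5 in every pair of wells. Sca1 was then higher by 1.43. Without all cells holding a marker of another type, which left 28 cells at 1 week, 2 tags were higher, Sca1 and CD133, and CD54 was at -0.073. CD86 differed between the 16-week wells, at 4.57 and 2.52, with median counts of 2 and 1.

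CD200 was lower at 16 weeks, with a difference of -2.37, as were CD73 at -1.53, CD40 at -1.51, Podoplanin at -1.36, Epcam at -1.02 and CD63 at -0.92. Cd200 RNA was lower as well, at 27.1 and 31.9 CPM against 69.3 and 94.1 CPM. Without the mesothelium-marked cells the difference of Podoplanin was 0.33, the other way, that of CD73 was -0.14, and that of CD200 was -0.98, while Epcam was at -1.99 and CD40 at -2.39. Without cells holding a marker of another type 3 tags were lower, CD40, CD63 and Epcam, and CD73 was at 0.045 and Podoplanin at 0.028, the other way.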

How the data were processed

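Thymic stroma of 1- and 16-week-old mice was measured by CITE-seq, as mRNA and tag libraries of 2 wells per age. The authors aligned the mRNA reads to mm10 with STARsolo 2.7.9a and deposited raw UMI counts per gene and cell for barcodes with at least 2000 UMIs. Tag counts per cell were deposited unscaled, with a list of the tag sequences. The labels name another version of the droplet kit than the methods, so none is given. Gene symbols and coordinates were taken from GENCODE M21, which held 55141 of 55487 IDs.

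The members and lists were chosen with earlier results of these data known. Counts were summed per well and class and divided by their total (CPM). Genes with at least 30 UMIs were kept, and a class at 0 was set to 3 counts. A gene was called at 2-fold in every comparison of wells. Named were the 10 genes per direction with at least 100 UMIs in the classes compared and the largest fold in the well where it was smaller (without Gm, Rik, mitochondrial and ribosomal protein genes), with the genes of the lists and tags, of which some are not reported here. With 1 pool per age no test was made. Cells were also thinned to 2000 UMIs. Epithelial cells were those with at least 5 UMIs of Epcam, Krt8, Krt18 and Krt5, and more of these than of the fibroblast genes. Tags were scaled to the cell's total.

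No cell was removed as a doublet. Scrublet's automatic limit marked 14 cells, too few to use, and a rate of 0.8% per 1000 cells marked 253, which were left out in an alternative. Other alternatives changed the scaling (edgeR 4.0.16 TMM, DESeq2 1.42.0 size factors), the filter, the fold, the rule and the wells. Scripts were tested on simulated data and ran in Python 3.11.15 with numpy 2.4.6, scipy 1.17.1, pandas 2.3.3 and scanpy 1.11.5, in R 4.3.3, and with matplotlib 3.10.9. Depth was 21281389 and 45480790 UMIs at 16 weeks and 31917364 and 25654110 at 1 week, so genes with few UMIs carry wide counting error.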

Additional observations from a re-analysis of the deposited data

Results flagged for a closer look

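Between fibroblasts with and without Dpp4 or Pi16, 10 of the 27 tags went one way in both wells at 16 weeks and the other way in both wells at 1 week, as did 2 of the named or listed genes that were past 2-fold at 16 weeks. These differences between the ages were not tested. Igfbp3, an IGF-binding protein, was higher with Dpp4 or Pi16 at 16 weeks, at 89.2 and 83.7 CPM against 19.9 and 26.4 CPM, and lower at 1 week, at 237 and 192 CPM against 251 and 319.7 CPM, a difference of 2.32 in log2 fold. Il4ra was at 155 and 114 CPM against 52.5 and 50.5 CPM at 16 weeks. At 1 week it was at 14.1 and 16.7 CPM against 25.3 and 21.0 CPM, a difference of 1.95 in log2 fold. The 1-week classes held 1558025 and 1499101 UMIs with Dpp4 or Pi16 and 949893 and 1094893 without. These Il4ra levels thus rest on few UMIs, and Igfbp3 was nearly level in replicate 1 at 1 week.

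The Podoplanin tag differed by -0.60 and -0.76 at 16 weeks and by 0.35 and 1.29 at 1 week, which is -1.50 between the ages. The Epcam tag differed by 0.59 and 0.57 at 16 weeks and by -0.56 and -0.71 at 1 week, which is 1.21 between the ages. The other 8 tags were higher with Dpp4 or Pi16 at 16 weeks, by less than 0.5 in at least 1 well, and lower at 1 week. Between the ages these differed by 1.74 for MadCAM1, 0.97 for MHCII, 0.82 for CD80, 0.67 for Ly6G/Ly6C, 0.66 for CD274, 0.62 for Sca1, 0.50 for CD133 and 0.43 for CD300LG. Median tag totals were lower with Dpp4 or Pi16 at 16 weeks, at 186.5 and 159 against 336.5 and 226, and higher at 1 week, at 237 and 331.5 against 166 and 180.0. At 1 week 63.1% and 69.4% of the cells with Dpp4 or Pi16, and 35.6% and 37.8% of the others, held at least 2 mesothelium markers.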

How the results depend on the processing

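No paired analysis was possible because the results come from no test; the adult contrasts were taken within each well, and wells of different ages share only a number. Adult genes were 372 higher and 91 lower: 574 and 607 for Dpp4 alone, 706 and 474 at 1.5-fold, 217 and 10 at 3-fold, 239 and 40 at 100 UMIs, 201 higher thinned, 239 higher without cells holding a marker of another type, 179 lower with no filter, and 457 lower with at least 2 UMIs of Dpp4 and Pi16. Settings chosen after seeing the data gave 569 and 590 with at least 3 UMIs, and 628 and 799 for 10 or more against 0. Without a replicate, 418 to 489 were higher and 206 to 238 lower. By age (744 and 550) they were 1430 and 1043 at 1.5-fold, 326 and 297 at 3-fold, 461 and 295 at 100 UMIs, 330 and 176 thinned, 441 and 158 without other-marker cells, 350 lower for Pi16 alone and, chosen later, 428 and 223 without mesothelium-marked cells. Without a replicate they were 954 to 1208 and 633 to 827. TMM and DESeq2 factors moved no count of genes by over 1.5 times. Without a replicate fewer wells have to agree; the cause of the other moves was not tested.

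The age difference in share (-11.7 points) was -18.1 for Dpp4 alone, -3.45 thinned, 1.77 for Pi16 alone, 2.52 without other-marker cells and 0.954 without mesothelium-marked cells, thus reversed in the last 3. Without a replicate it was -13.1 to -10.4. The share at 16 weeks and 1 week was 14.7% and 32.8% for Dpp4 alone, 21.3% and 32.8% at 2 UMIs, 17.8% and 26.98% at 3, 20.6% and 24.1% thinned, and 42.4% and 55.1% without cells under 5000 UMIs. At 1 week alone it was 34.1% for Pi16 alone, 34.9% without other-marker cells and 34.9% without mesothelium-marked ones.

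Adult tags (1 higher, 3 lower) were 3 and 5 at 2 UMIs, 5 and 5 at 3 UMIs, 7 and 6 at a difference of 0.25, 0 and 5 unscaled, 0 higher by centred log ratio, 2 higher without other-marker cells or without MHCII and UEA1 in the total, and 2 higher and 4 to 5 lower without a replicate. Sca1 was -0.19 unscaled. Age tags (7 higher, 6 lower) were 2 and 3 without other-marker cells, 4 higher without mesothelium-marked cells, 4 by centred log ratio and 2 unscaled. CD54 was then -0.073, CD73 0.045 and Podoplanin 0.028 without other-marker cells, and Podoplanin 0.33 without mesothelium-marked cells. One pool per age limits all results.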
